A study of Homo sapiens with 2 samples.

Results

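Kinesins are motor proteins that use ATP to walk along microtubules or to take them apart. The 41 kinesin heavy-chain genes described here were chosen by name, as every gene whose probe sets carried a single KIF symbol, out of 18417 named genes on the array. They were divided into 11 members that act in mitosis (KIF2C, KIF4A, KIF11, KIF14, KIF15, KIF18A, KIF20A, KIF20B, KIF22, KIF23 and KIFC1) and the 30 others, most of which carry organelles, vesicles or ciliary cargo. The antisense gene KIF25-AS1 was no member, and KIF4B was not measured on its own because its probe set is shared with KIF4A. The RNA was obtained from A549, a human cell line established from a lung adenocarcinoma, after immunoprecipitation with an antibody against Argonaute2 (Ago2), the protein that holds microRNAs and the mRNAs they pair with. There was 1 array of cells overexpressing miR-130b and 1 array of cells transfected with an empty vector, so no value has a replicate error, and no test or p-value was computed. The labels give miR-130b as the transfection of the overexpressing cells. In what form it was transfected, and from how many cultures each precipitate came, is not stated in them. Every difference below is on the log2 scale, miR-130b minus empty vector, and describes these 2 arrays.

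In a dividing cell, mitotic kinesins push the spindle poles apart, cross-link and shorten microtubules, move chromosomes along them and build the midzone where the cell is cleaved. The transcripts of many of these motors are made mainly in G2 and mitosis. Transport kinesins, in contrast, work through the whole life of a cell and many are used by neurons or cilia. The labels name miR-130b without an arm, and the 3p arm is shown here with its seed, the stretch that pairs with targets. The 5p arm, which has a different seed, is not shown. The seed (bases 2 to 8) is in capitals, and the sequence is that of RefSeq on GRCh38.p14, at chr22:21653354-21653375 on the plus strand.
hsa-miR-130b-3p: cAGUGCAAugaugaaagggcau
Target sites of this seed in the kinesin mRNAs were not analysed here.

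The probe set of MIR130B, the gene of the microRNA, stood at 12.64 on the miR-130b array, against 6.66 on the empty-vector array, as the labels state. Both arrays had nearly the same median over 33297 probe sets (7.77 on each). Markers of A549 and epithelial cells were abundant, with all 10 above the median level of named genes (8.64) and a list median of 12.98 on the miR-130b array and 13.01 on the empty-vector array. CDH1, E-cadherin, was the marker that differed most, at 11.49 with miR-130b and 12.61 with the empty vector. Of 4 measured leukocyte markers, 3 lay within the range of olfactory receptor genes on both arrays, while CD14 stood at 9.53 with miR-130b and 8.89 with the empty vector. Only 2 of 5 endothelial and 1 of 5 fibroblast markers lay within that range, although 4 and 5 of them were below the median level of named genes. All 4 leukocyte, 5 endothelial and 5 fibroblast markers had positive differences, from 0.021 to 0.71. A positive difference was also found in 58.6% of all named genes and 62.2% of olfactory receptor genes. The part of these markers in the kinesin values was not tested.

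The mRNAs of the mitotic kinesins were more abundant in the miR-130b precipitate. All 11 had a positive difference, with a median of 0.75 and a range from 0.22 to 1.05, while the median of all named genes was 0.053. Of the 11, 8 were higher by 1.5-fold or more, whereas 3.65% of all named genes were, and 2 by 2-fold or more, whereas 1.06% of all named genes were. The 2-fold count depended on the scaling of the arrays, with 0 members after the median difference of all genes was subtracted and 4 after quantile normalization. Among the 6372 genes whose mean level lay in the range of these 11 (9.33 to 12.04), 5.54% were at least 1.5-fold higher and the median difference was 0.0098. A positive difference of any size was common, at 58.6% of all named genes and 51.3% of those in this level range. No array of RNA before precipitation was analysed here, so more mRNA per cell, more cells that express it and a larger share bound to Ago2 cannot be told apart.

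Among the motors of cell cleavage, KIF20B, which is needed to complete cytokinesis, had the largest difference among the 41 members. It stood at 10.08 with miR-130b and at 9.03 with the empty vector, a 2.07-fold difference, which ranked 167 among the 18417 named genes. KIF20A, which brings the chromosomal passenger complex to the spindle midzone, stood at 11.83 with miR-130b and 10.84 with the empty vector, 1.99-fold apart. These relatives, which share a number, thus differed from each other by 0.061 in their log2 differences. KIF14, a midzone motor that binds citron kinase, stood at 11.10 with miR-130b and 10.35 with the empty vector, 1.68-fold apart. KIF23, the motor subunit of the centralspindlin complex, stood at 12.37 with miR-130b and 11.71 with the empty vector, 1.58-fold apart. All 4 motors described here therefore passed 1.5-fold, as 3.65% of all named genes did. They were grouped only for this text, and KIF4A, which also acts at the midzone, is described with the chromosome motors.

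Of the motors that shape the spindle, KIF11 slides antiparallel microtubules apart and so separates the poles. It stood at 11.23 with miR-130b and 10.36 with the empty vector, 1.83-fold apart. KIF15, which can share that task with KIF11, stood at 9.63 with miR-130b and 9.02 with the empty vector, and its 1.52-fold difference lay just past 1.5-fold. KIFC1, a minus-end motor that cross-links spindle microtubules and gathers surplus centrosomes, stood at 10.83 with miR-130b and 9.87 with the empty vector, 1.95-fold apart. All 3 spindle-shaping motors, also grouped only for this text, therefore passed 1.5-fold as deposited, as 3.65% of all named genes did. After subtraction of the median difference KIF15, at 0.55, no longer did.

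The motors that act on chromosomes and on microtubule ends were less alike. KIF18A, which damps the movements of chromosomes at the spindle equator, stood at 11.44 with miR-130b and 10.41 with the empty vector, 2.05-fold apart. The chromosome-arm motors KIF4A and KIF22 were both short of 1.5-fold. KIF4A, which also sets the length of the midzone, stood at 11.70 with miR-130b and 11.16 with the empty vector, 1.46-fold apart. KIF22, which pushes chromosome arms towards the equator, stood at 11.09 with miR-130b and 10.57 with the empty vector, 1.44-fold apart. KIF2C, which does not walk but removes tubulin from microtubule ends at centromeres, had the smallest difference of the 11. It stood at 10.54 with miR-130b and 10.32 with the empty vector, 1.17-fold apart, and 21.2% of all named genes had a difference at least as large.

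**Figure D1:**
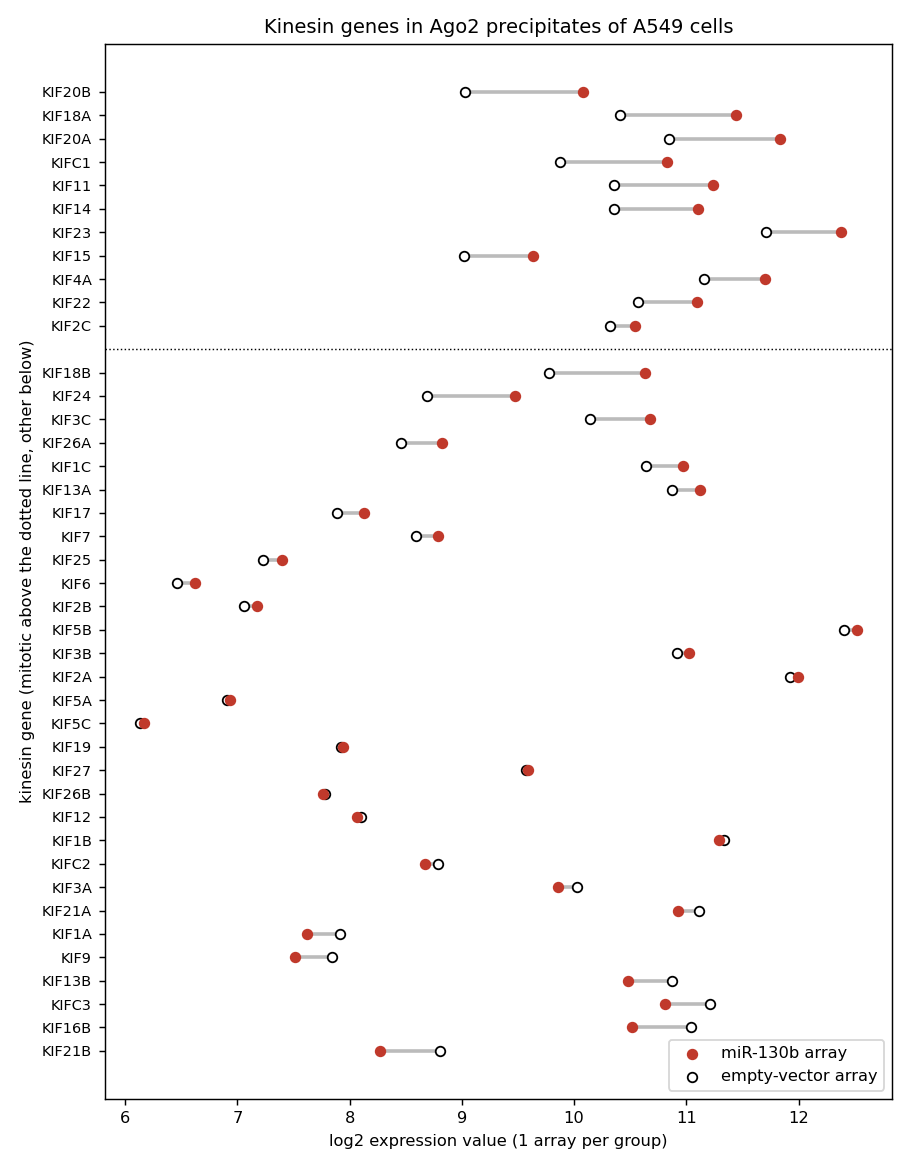
Log2 expression values (x axis) of all 41 kinesin genes (rows), with the miR-130b array as red filled points and the empty-vector array as open points, 1 array per group, so there are no error bars. All 11 mitotic genes above the dotted line have the red point to the right, whereas the 30 other genes lie on both sides, 18 with the red point to the right and 12 to the left. Over all named genes, 58.6% were higher with miR-130b.

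The only spread that these arrays offer is that between probe sets of the same gene. Pooled over 671 genes whose probe sets gave unlike values, the SD of the difference was 0.19, which leaves out variation between cultures and precipitations. Probe sets that list the same transcripts were kept in this SD and may make it too small. Of the 11 mitotic kinesins, 10 were higher by at least 2 such SDs (0.39), against 8.6% of all named genes, and KIF2C was the exception. KIFC1 was read by 2 probe sets, with differences of 0.98 and 0.95, and KIF22 by 2, with differences of 0.52 in both. The 2 probe sets of each gene list the same transcripts and may share probes, so their closeness says little about error. CENPE, a kinesin of the kinetochore that bears no KIF symbol and was therefore no member, stood at 10.33 with miR-130b and 9.11 with the empty vector, a difference of 1.22 that was larger than that of any member.

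The other 30 kinesins were not shifted as a group. Their median difference was 0.027, with 18 higher (60%, against 58.6% of all named genes) and 12 lower on the miR-130b array. The mitotic median exceeded theirs by 0.72 on the log2 scale. Of the 30, 2 were at least 1.5-fold higher (6.67%, against 3.65% of all named genes). None was at least 1.5-fold lower, which in a list of 30 is close to the 4.65% of all named genes. In all, 23 of the 30 lay below the lowest mitotic member. The 13 of them within the level range of the mitotic members had a median of 0.017. In 12 of the 30 the mean level was below the median of named genes, and KIF2B, KIF5A, KIF5C and KIF6 lay on both arrays at or below the 95th percentile of 341 olfactory receptor genes, which A549 cells have no known use for. KIF5A and KIF5C are known as neuronal motors and KIF2B from testis. Differences of genes this dim say little, since background adds to their signal.

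Both kinesins past 1.5-fold outside the mitotic set have known roles at spindles or centrioles. KIF2A, which also acts at spindle poles, differed by only 0.067. KIF18B, which shortens astral microtubules in mitosis and is a close relative of KIF18A, stood at 10.63 with miR-130b and 9.78 with the empty vector, 1.81-fold apart. Its 2 probe sets gave differences of 0.86 and 0.85 and list the same transcripts. KIF24, a centriolar protein that holds back cilium formation, stood at 9.47 with miR-130b and 8.69 with the empty vector, 1.71-fold apart. Without KIF18B and KIF24, the remaining 28 ran from -0.53 to 0.53 with a median of 0.025. Counting KIF18B with the mitotic members raised their median to 0.80.

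**Figure D2:**
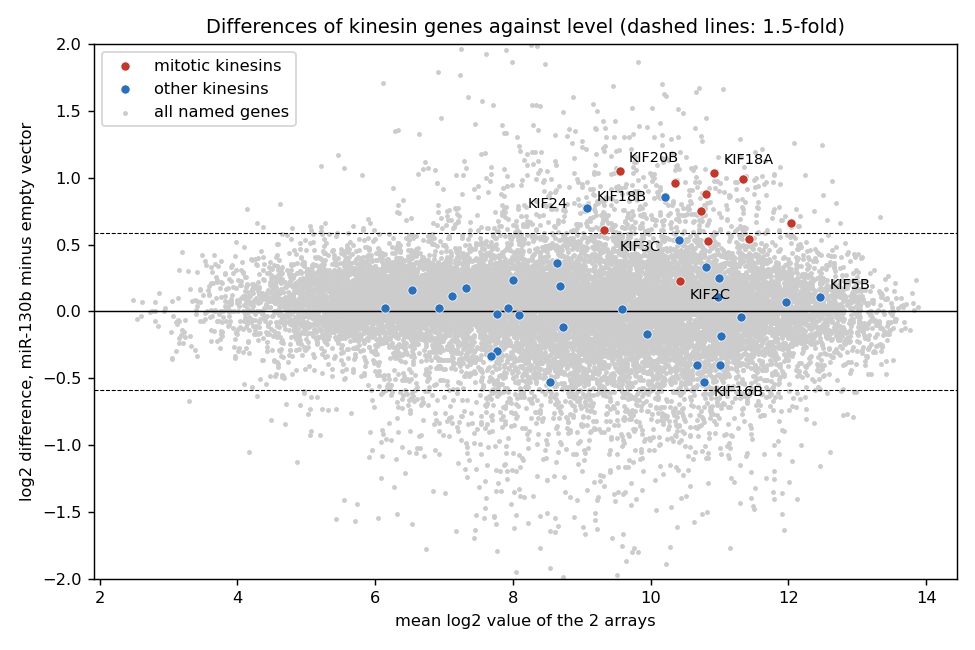
Log2 difference, miR-130b minus empty vector (y axis), against the mean log2 value of both arrays (x axis), with mitotic kinesins in red, other kinesins in blue and all named genes in grey, 1 array per group. The mitotic points lie above 0 at levels of 9.33 to 12.04, where blue points at the same levels lie on both sides; 48 named genes beyond 2 on either side are outside the axis.

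The 15 transport kinesins had a median difference of 0.027, with 8 higher (53.3%) and 7 lower and none past 1.5-fold in either direction. Over all named genes, 58.6% were higher, 3.65% by at least 1.5-fold, and 4.65% were at least 1.5-fold lower. In a list of 15, these counts are close to those shares. KIF5B, the ubiquitous heavy chain of conventional kinesin, stood at 12.52 with miR-130b and 12.41 with the empty vector, a difference of 0.11. KIF1B, which carries mitochondria and vesicle precursors, stood at 11.29 with miR-130b and 11.33 with the empty vector, a difference of -0.042. These well-detected carriers thus differed by less than the SD between probe sets. The pair that drives transport into cilia went slightly apart, with KIF3A at 9.86 with miR-130b and 10.03 with the empty vector, and KIF3B at 11.03 with miR-130b and 10.92 with the empty vector. KIF3C, which can also pair with KIF3A, stood at 10.67 with miR-130b and 10.14 with the empty vector, 1.45-fold apart and the largest difference among the transport kinesins.

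A few carriers, picked here after their values were seen, were lower with miR-130b, although none by 1.5-fold. KIF16B, a motor of early endosomes, stood at 10.52 with miR-130b and 11.04 with the empty vector, a difference of -0.53. KIFC3, a minus-end motor found at adherens junctions, stood at 10.81 with miR-130b and 11.21 with the empty vector, a difference of -0.40. The endosomal motors KIF13A and KIF13B, which are close relatives, went opposite ways, with KIF13A at 11.12 with miR-130b and 10.87 with the empty vector. KIF13B stood at 10.48 with miR-130b and 10.88 with the empty vector. Of the KIF1 trio, KIF1C had a difference of 0.33 and the neuronal KIF1A one of -0.30, the last from a level below the median of named genes. KIF17 (0.24) and KIFC2 (-0.12) were also dim or close to that median.

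The cilium-related and remaining motors held few differences beyond that of KIF24. Of 6 cilium-related kinesins, KIF7, a regulator of Hedgehog signalling, differed by 0.19, KIF6 by 0.16, KIF19 by 0.023, KIF27 by 0.017 and KIF9 by -0.33. Probe sets shared by KIF27 and LOC389765, which are outside the gene-level comparison, differed by -0.20 and -0.27. KIF2A, which removes tubulin at microtubule ends in neurons and at spindle poles, stood at 11.99 with miR-130b and 11.93 with the empty vector, a difference of 0.067, although its relative KIF2C is a mitotic member. KIF21A and KIF21B, which slow microtubule growth, were both lower with miR-130b, KIF21B at 8.27 with miR-130b and 8.80 with the empty vector, and KIF21A at 10.93 with miR-130b and 11.11 with the empty vector. The other 4 of this group were KIF26A (0.36), KIF25 (0.18), KIF26B (-0.019) and KIF12 (-0.029), of which KIF26A alone reached the median level of named genes.

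Genes that work with the kinesins were read from lists drawn up from general knowledge, with earlier results of these data known. The lists are therefore no independent support for the kinesin values. All 13 partners of mitotic kinesins had positive differences, with a median of 0.56, and 5 were at least 1.5-fold higher. Over all named genes, 58.6% had a positive difference and 3.65% were at least 1.5-fold higher. INCENP, the scaffold of the chromosomal passenger complex that KIF20A moves, stood at 10.73 with miR-130b and 9.92 with the empty vector. CIT, the citron kinase bound by KIF14, stood at 11.89 with miR-130b and 11.17 with the empty vector. RACGAP1, which joins KIF23 in centralspindlin, differed by 0.56, and PRC1, the midzone protein that recruits KIF4A, by 0.55. The smallest differences were those of the cytokinesis exchange factor ECT2 (0.24) and of BIRC5, survivin (0.36).

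Light chains, cargo adaptors and the opposing motor dynein lay close to the array as a whole. Of 17 measured light chains and adaptors, 6 were higher (35.3%, against 58.6% of all named genes) and 11 lower, with a median of -0.016. At or above the median level of named genes their median was -0.14, against 0.010 for all such genes. None was past 1.5-fold, and 3.65% of all named genes were higher and 4.65% lower by that much. In a list of 17, none is close to those shares. The extremes were FEZ1, a cargo adaptor, at 0.29 from a dim level, KIFBP, which restrains kinesins, at 0.26, SPAG9, a scaffold that links kinesin and dynein to vesicles, at -0.31, and FYCO1, an adaptor of late endosomes and autophagosomes, at -0.26. Of 23 measured dynein and dynactin genes, 12 were higher (52.2%) and 11 lower, with a median of 0.0084. The adaptors BICD2 and BICD1 differed by 0.53 and 0.38, NDEL1, a dynein regulator, by -0.53 and DYNLT3, a dynein light chain and the 1 gene of this list past 1.5-fold, by -0.64. DYNC1H1, the dynein heavy chain, was not named by the rule for extremes and stood at 13.10 with miR-130b and 13.39 with the empty vector.

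**Figure D3:**
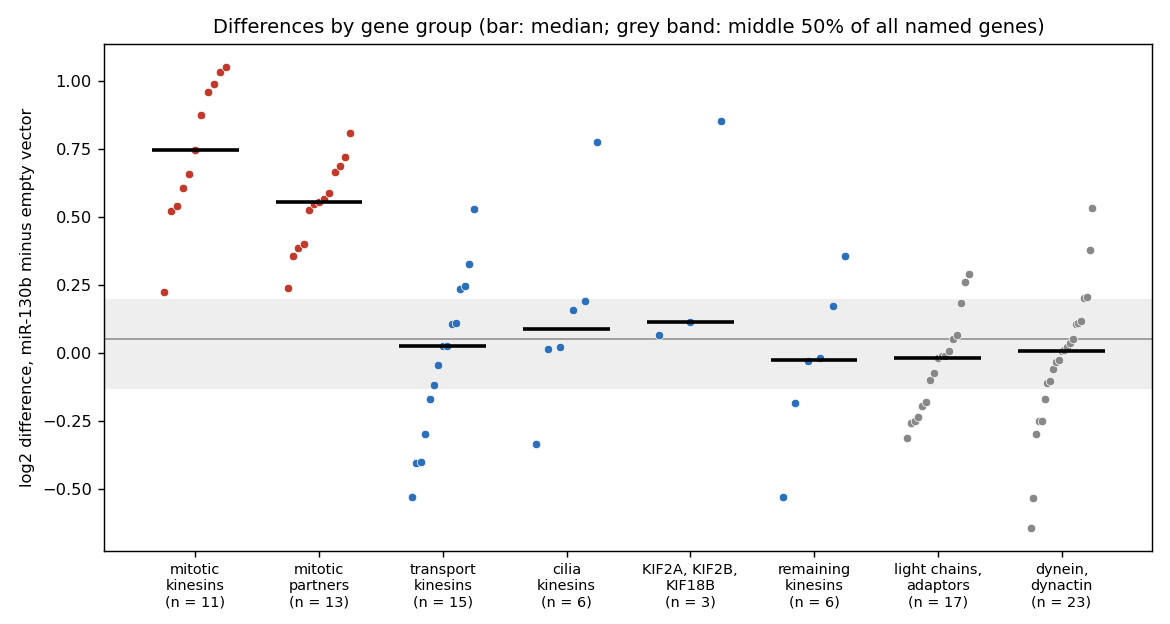
Log2 difference, miR-130b minus empty vector (y axis), of each measured gene (points) in 8 groups (x axis), with a black bar at the group median, a grey line at the median of all named genes and a grey band over their middle 50%. Every point of the mitotic kinesins and of their partners lies above the band, whereas the medians of the other groups lie within it.

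The promoters of the kinesins were also compared, and a link between their motifs and the differences was not tested. Genes of G2 and mitosis often carry a CHR element, spelled TTTGAA in some and TTTAAA in others, which the MuvB complexes bind, a short way from a CCAAT box, which NF-Y binds. Windows of 300 bases, from 250 before to 50 after each RefSeq gene start on GRCh38.p14, were found for 33 of the 41 kinesins, without KIF5A, KIF13B, KIF19, KIF21B, KIF26B, KIF27, KIFC2 and KIFC3. Each motif was searched on both strands, and TTTAAA reads the same on both. Promoters of the 5 mitotic members with both kinds of motif within the 150 bases before the start are shown, followed by those of KIF18B, of the carrier KIF5B and of KIF3A, which holds neither. Each line gives the 150 bases before the gene start, on the strand of the gene, with the letters of both CHR spellings and of the CCAAT box, or their reverse complements, in capitals.
KIF20A: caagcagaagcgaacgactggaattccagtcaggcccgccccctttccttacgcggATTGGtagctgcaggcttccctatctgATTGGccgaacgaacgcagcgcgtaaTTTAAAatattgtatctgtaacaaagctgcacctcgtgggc
KIF18A: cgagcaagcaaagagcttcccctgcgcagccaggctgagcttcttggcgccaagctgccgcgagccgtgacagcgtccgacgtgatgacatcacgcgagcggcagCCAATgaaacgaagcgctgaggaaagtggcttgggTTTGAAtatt
KIF11: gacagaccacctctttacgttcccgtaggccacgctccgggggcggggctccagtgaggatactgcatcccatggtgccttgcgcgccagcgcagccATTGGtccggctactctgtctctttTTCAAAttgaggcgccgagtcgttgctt
KIF4A: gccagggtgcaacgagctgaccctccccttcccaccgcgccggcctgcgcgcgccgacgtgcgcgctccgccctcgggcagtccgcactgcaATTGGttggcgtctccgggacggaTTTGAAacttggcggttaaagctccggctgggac
KIF23: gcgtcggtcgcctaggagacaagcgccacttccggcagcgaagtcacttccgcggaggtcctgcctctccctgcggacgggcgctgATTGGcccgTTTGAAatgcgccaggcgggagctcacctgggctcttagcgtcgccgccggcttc
KIF18B: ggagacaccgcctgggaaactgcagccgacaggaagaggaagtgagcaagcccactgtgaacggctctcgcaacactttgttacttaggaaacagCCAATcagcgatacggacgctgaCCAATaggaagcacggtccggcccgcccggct
KIF5B: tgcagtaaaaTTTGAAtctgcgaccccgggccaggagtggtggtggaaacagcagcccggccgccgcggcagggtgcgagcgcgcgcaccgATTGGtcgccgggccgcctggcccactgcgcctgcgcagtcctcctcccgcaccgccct
KIF3A: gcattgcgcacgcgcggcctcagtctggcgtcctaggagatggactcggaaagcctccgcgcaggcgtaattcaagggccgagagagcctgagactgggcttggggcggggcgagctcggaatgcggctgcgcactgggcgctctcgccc
The stretches of KIF20A (chr5:138178962-138179111), KIF11 (chr10:92592980-92593129), KIF4A (chrX:70289954-70290103) and KIF23 (chr15:69414199-69414348) lie on the plus strand. Those of KIF18A (chr11:28108157-28108306), KIF18B (chr17:44947774-44947923), KIF5B (chr10:32056426-32056575) and KIF3A (chr5:132737547-132737696) lie on the minus strand.

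Of the 12 windows of the 11 mitotic kinesins, 8 held TTTGAA (66.7%), while 15.2% of all 35116 windows did, and 4 held TTTAAA, while 12.2% of all did. CCAAT was found in 9 of the 12 (75%) and in 34.6% of all windows. Windows with CCAAT and either of the other motifs made up 66.7% of the mitotic ones, 6.67% of the 30 windows of other kinesins and 9.27% of all. The mitotic members without this combination were KIF2C and KIF15, which lacked CCAAT, and KIF22, which lacked the others. Outside the mitotic set the combination was found in KIF18B and in KIF5B. Of the partners of mitotic kinesins, 9 were found in the promoter table, and 8 of their 11 windows (72.7%) held the combination. KIF24 held CCAAT at 3 places and neither of the other motifs. These are counts of letters and not of bound sites, and windows of 1 gene can overlap. The mitotic list was chosen by function, so its share of these motifs could differ whatever the arrays showed.

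The place of the motifs also differed between genes. In 5 of the 8 mitotic members with both kinds, CCAAT began between 23 and 35 bases before the other motif, as counted between their first bases, namely in KIF14 (23), KIF4A (24), KIF11 (25), KIF20A (26) and KIF18A (35) for the closest pair in each. The distance was 34 in KIF18B, 9 in KIF23, 50 in KIFC1 and 122 in KIF20B. In KIF5B the order was reversed, with TTTGAA 81 bases before CCAAT. The median GC content was 62.5% in the mitotic windows, 66.5% in those of the other kinesins and 58.7% in all windows.

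**Figure D4:**
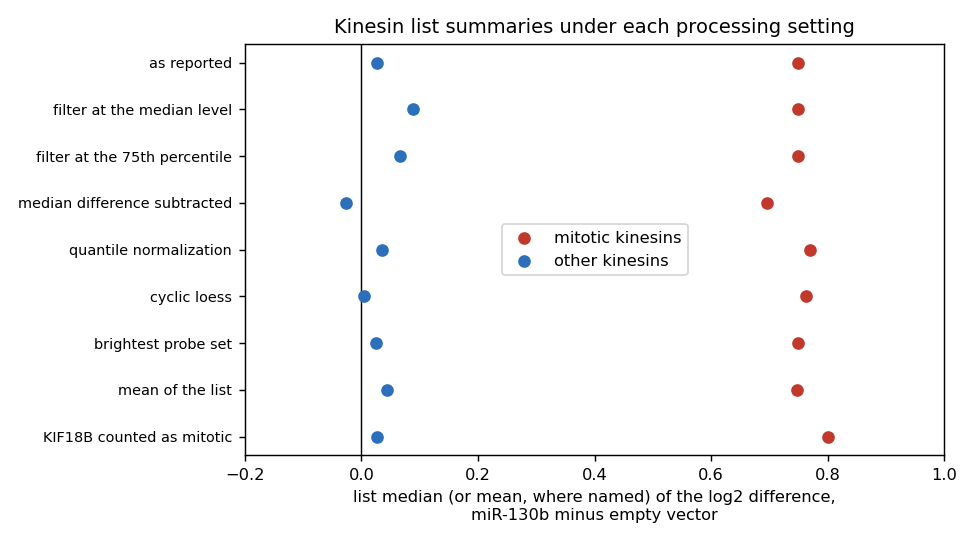
Summary of the log2 differences, miR-130b minus empty vector (x axis), of the 11 mitotic kinesins (red) and the 30 other kinesins (blue) as reported and under 8 alternative settings (rows). The red points lie between 0.70 and 0.80 and the blue points between -0.026 and 0.088.

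The separation of the mitotic from the other kinesins was present under each of the 8 settings tried, as the plot of list summaries shows. The difference of the medians lay between 0.66 and 0.77. All 11 mitotic members stayed positive after median centring, quantile normalization and cyclic loess, and when each gene was read by its brightest probe set. No member moved by more than 0.061 under these settings, less than the smallest mitotic difference of 0.22, so these signs could not change. The settings rework the same arrays and do not measure variation between cultures. Of the others, 18 were higher as deposited and 14 after centring on the median of all genes (15 after cyclic loess). With centring, KIF5A, KIF5C, KIF19 and KIF27 changed sign, each from a difference below 0.053 as deposited.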

How the data were processed

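The authors deposited log2 values of 33297 probe sets for 2 arrays, on a scale inferred from their range (1.95 to 14.2). The labels' protocols name Affymetrix whole-transcript labelling; for the authors' software and normalization, nothing is given in the sources used here. The extraction protocol in the labels describes excised tissue and a small-RNA kit, although both samples are a cell line. Probe sets were named through the platform annotation: 19460 had 1 symbol, 1754 several and 12083 are unnamed here. Entrez identifiers gave current symbols (19429 matched), and probe sets of a gene were averaged, giving 18417 genes. No filter on level was applied to members or background. With 1 array per group, genes were counted at 1.5-fold and 2-fold, without a test. Array number limits the precision.

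The members and lists were chosen with earlier results of these data known. The text names all mitotic members, the other kinesins at least 1.5-fold apart, the 3 with the highest mean, KIF5B, KIF3A, KIF1B, KIF2A and KIF18B, and the 2 extremes each way of each list; the remaining kinesins, RACGAP1, PRC1, CENPE, DYNC1H1, CDH1 and CD14 were named after their values were seen. Counting was tested on simulated differences. Python 3.11.15, pandas 2.3.3, numpy 2.4.6, matplotlib 3.10.9, R 4.3.3 and limma 3.58.1 (cyclic loess) were used.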

Additional observations from a re-analysis of the deposited data

Results flagged for a closer look

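The probe set shared by KIF4A and KIF4B, which lies outside the gene-level comparison because it carries 2 symbols, stood at 9.52 with miR-130b and 9.03 with the empty vector. It was looked at because its difference of 0.49 exceeded 2 SDs between probe sets, and the probe set of KIF4A alone differed by 0.54. Of the 5 probe sets that carry a kinesin symbol beside another, the other 4 differed by less, from -0.27 to 0.27. Those shared by KIF27 and LOC389765 differed by -0.20 and -0.27, and those shared by KIF5B with ALK or RET by 0.094 and 0.27.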

How the results depend on the processing

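The medians of the mitotic kinesins (0.70 to 0.80 over 8 alternatives), of the other kinesins (-0.026 to 0.088), of the mitotic partners (0.50 to 0.57), of light chains and adaptors (-0.14 to -0.016) and of dynein and dynactin (-0.050 to 0.028) moved by less than the SD between probe sets (0.19). That SD is of single probe sets, and a list median can be steadier, so it is a lenient yardstick. Median centring turned the sign of the other kinesins' median. At 2-fold, 2 mitotic kinesins and 0 other kinesins were higher. The mitotic 2-fold count, whose alternatives were chosen after seeing the data, was 0 after median centring, 4 after quantile normalization, 3 after cyclic loess and 1 without genes under the 75th percentile of level, which leaves out KIF20B. As deposited, KIF20B, KIF18A, KIF20A and KIFC1 differed by 0.96 to 1.05, close to 2-fold. Median centring left 7 mitotic kinesins past 1.5-fold, in place of 8, without KIF15. When genes under the 75th percentile of level were left out, 6 kinesins in all were at least 1.5-fold apart, in place of 10, and 0 of these were outside the mitotic set. Counting KIF18B as mitotic left 1 other kinesin past 1.5-fold, KIF24. No paired analysis was possible because each group has 1 array, and no replicate could be left out. Array background can understate folds of dim genes, and the arrays carry no detection call here.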
